A study of Mus musculus with 31 samples.

Results

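Mouse embryonic fibroblasts (MEFs) heterozygous for a Crebbp mutation (Crebbp+/-) were compared with wild-type (WT) MEFs from the same litters. MEFs are the adherent cells that grow out of a trypsinized embryo body in serum, a mixture dominated by mesenchymal cells. The 8 arrays were those labelled Crebbp+/+ MEF (4) and Crebbp+/- MEF (4), of 31 in the series. Each array held the total RNA of the cells of 1 embryo at 14.5 days post coitus, and each of the 4 litters gave 1 embryo of each genotype. All 8 embryos had a C57BL/6 background, and the WT controls were littermates of the mutants. Fetal liver hematopoietic stem cells (FL HSCs) of Crebbp+/+ and Crebbp+/- embryos of the same age and strain were used for one comparison. These were 2 samples of each genotype, each the sorted cells of 15 pooled embryos read on 2 arrays.

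CREBBP (CBP) is a histone acetyltransferase and transcriptional coactivator. It has no sequence-specific DNA contact of its own and is brought to genes by factors such as CREB, AP-1, p53, SMADs, beta-catenin and nuclear receptors. EP300 (p300) is its close paralog. Loss of 1 copy of either gene in humans gives Rubinstein-Taybi syndrome, with broad thumbs, facial and skeletal anomalies, so skeletal and connective tissue cells are among those the gene dose is known to affect. In fibroblasts CREBBP is known as a coactivator of immediate early, collagen and cytokine genes.

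Values were the log2 intensities that the authors obtained with GCRMA, and a difference is given as Crebbp+/- minus WT on that scale. A probe set is a group of oligonucleotides on the array that reads 1 transcript region. The 15502 probe sets whose highest MEF sample reached log2(100), the minimum intensity of the study, were tested with limma with the litter as a block. A difference was called when its adjusted p (Benjamini-Hochberg) was under 0.05 and its fold over 1.5. Between 14380 and 14684 probe sets of an array reached the minimum. With 4 arrays a group, their number sets the precision. Fibroblast transcripts were abundant in all cultures: Col1a1, Col1a2, Col3a1, Fn1 and Vim were at 14.1 to 15.7 in every sample, and Pdgfra at 11.3 to 12.2. None of the 10 erythroid markers on the array reached the minimum, and none of the 12 genes of the hepatocyte list did. That list included Trh, which is not a hepatocyte marker. All 8 samples had the Y-linked Eif2s3y at 9.18 to 9.72 and Xist, the RNA of the inactive X chromosome, at 2.96 to 3.07, so sex did not vary between the groups.

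The litters did not all show the same difference. Across probe sets, the difference in litter 1 had a correlation of -0.29 with that in litter 4 and of -0.07 with that in litter 2, and the pairs of litters 2, 3 and 4 had correlations of 0.19 to 0.29. These are descriptions over probe sets, which are not independent and share each sample's array. The WT sample of litter 1 stood apart: its root mean square distance from the other WT samples was 0.53, against 0.19 to 0.35 for the 7 other samples.

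No probe set passed the call, which is 0% of those tested, and 1029 (6.64%) had an unadjusted p under 0.05. The unadjusted p and the fold together were reached by 49 probe sets that were higher in Crebbp+/- MEFs (0.316%) and by 100 that were lower (0.645%). Of these 149, 123 differed in the same direction in all 4 litters, as 2554 of all tested probe sets did. The differences described below are therefore sizes with their errors, and the words higher and lower give a direction that did not pass the adjusted test. Every Crebbp+/- sample was above every WT sample for 340 probe sets (2.19%) and below for 213 (1.37%).

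**Figure D1:**
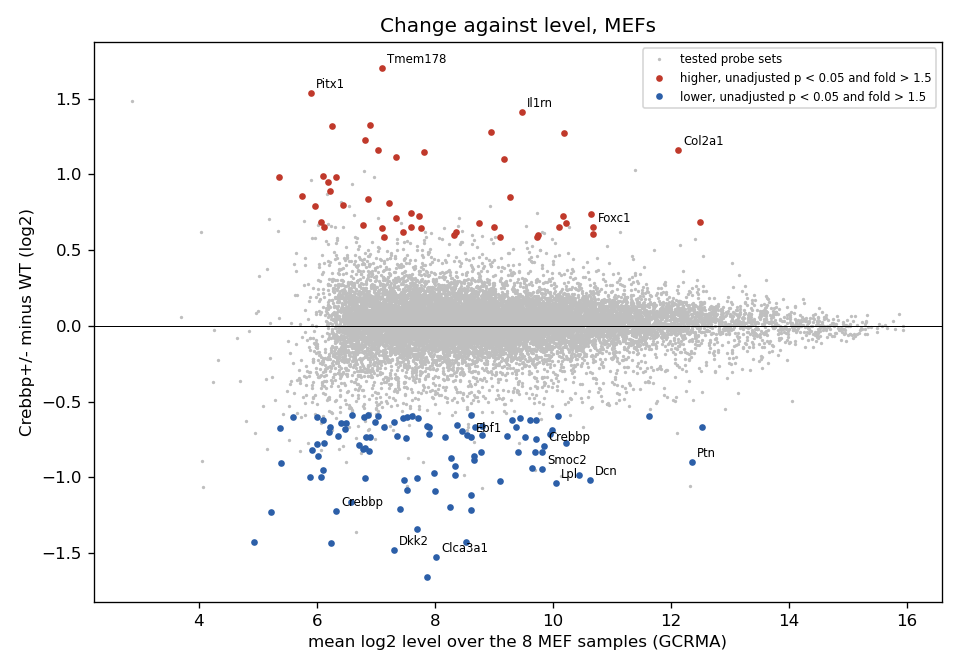
Difference between Crebbp+/- and WT MEFs (y axis, log2) against the mean level over the 8 samples (x axis, log2 GCRMA intensity) for the 15502 probe sets tested, 1 point each. Red and blue points are the 49 higher and 100 lower probe sets at an unadjusted p under 0.05 with a fold over 1.5; Crebbp and the lower matrix gene Dcn lie among the blue points, and none passed the adjusted test.

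The product of the targeted gene, Crebbp, was lower in all 4 litters by each of its 4 measured probe sets. The brightest read 10.34, 10.15, 10.31 and 10.15 in the WT samples of litters 1 to 4 and 9.48, 9.496, 9.42 and 9.38 in the Crebbp+/- samples. The groups did not overlap, and the gap between genotypes was several times the spread within one. The difference was -0.79 (standard error 0.073, adjusted p = 0.417), a fold of 1.73. A probe set of nearly the same brightness gave -0.83 (standard error 0.090, adjusted p = 0.417). The 2 dimmer ones gave -1.22 (standard error 0.14) and -0.60 (standard error 0.18). The first had a WT mean of 6.94 and a Crebbp+/- mean of 5.71, which is below the minimum intensity. The second had means of 7.34 and 6.74, the latter close to the minimum. Which exons the allele lacks is not given in the sources used here, so whether these probe sets lie inside the removed part cannot be told. Without the litter block, or with the litter as a random block, the 2 bright Crebbp probe sets were called, with adjusted p of 0.0269 and 0.0157.

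Partners of CREBBP differed little. Ep300 read 8.99, 8.86, 8.93 and 8.87 in WT and 9.03, 9.07, 8.97 and 9.06 in Crebbp+/- samples, a difference of 0.12 (standard error 0.071). Of 19 measured genes for acetyltransferases, CREB proteins and their cofactors, 13 were higher and 6 lower, with a median of 0.046 against 0.023 over all tested probe sets. Creb1, which recruits CREBBP after phosphorylation, had a difference of -0.01. The mediator subunit Med25 (0.21) and Crebbp were the members with an unadjusted p under 0.05.

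**Figure D2:**
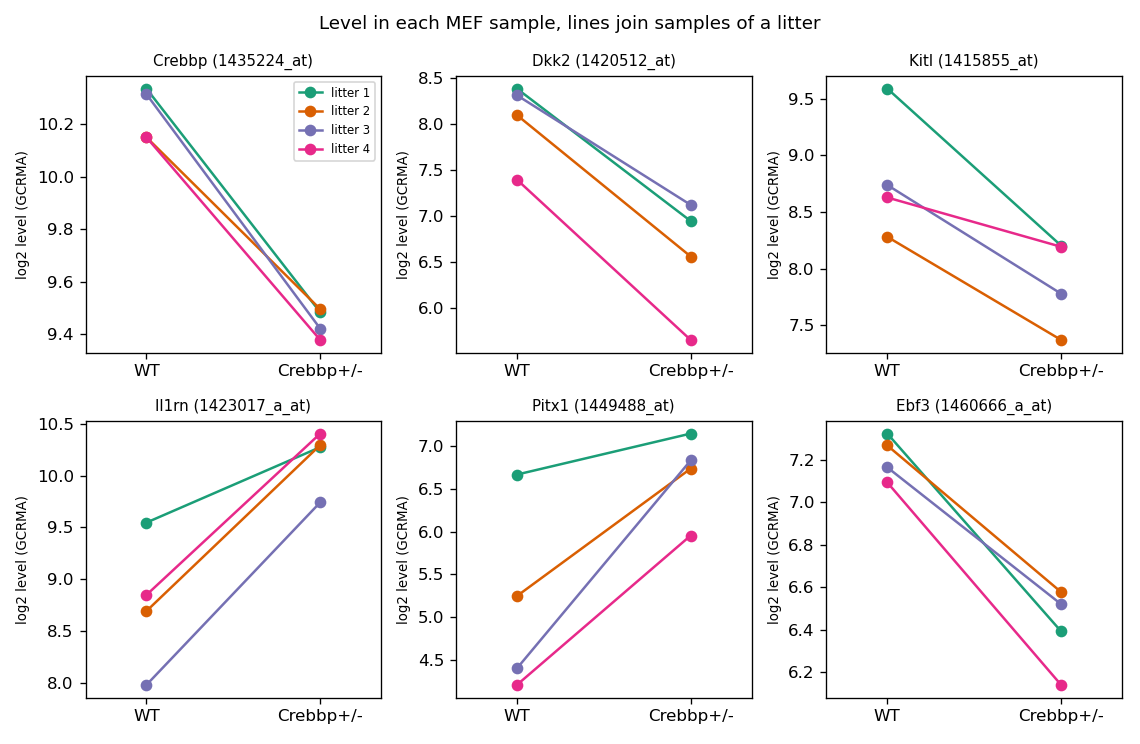
Log2 GCRMA level (y axis) of Crebbp and 5 further genes in each of the 8 MEF samples, by genotype (x axis); each line joins the WT and the Crebbp+/- embryo of 1 litter. In every panel all 4 lines run the same way; the y axes differ between panels and do not start at 0.

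Among secreted regulators, the antagonists Dkk2 and Il1rn differed in opposite directions. Dkk2, a secreted modulator of Wnt signalling that binds the LRP5 and LRP6 co-receptors, read 8.38, 8.10, 8.31 and 7.39 in WT samples. In the Crebbp+/- samples of the same litters it read 6.94, 6.56, 7.12 and 5.65, below every WT value. The Crebbp+/- mean of 6.57 lay just below the minimum intensity. The difference was -1.48 (standard error 0.10, adjusted p = 0.270), the smallest adjusted p of all probe sets, and the litters ranged from -1.20 to -1.75. Il1rn, the interleukin-1 receptor antagonist that blocks the signal of IL-1, lay in the opposite direction. Its probe set with the largest difference read 9.54, 8.69, 7.98 and 8.85 in WT and 10.27, 10.29, 9.74 and 10.40 in Crebbp+/- samples, without overlap, a difference of 1.41 (standard error 0.18, adjusted p = 0.417). The other 2 Il1rn probe sets gave 1.27 and 1.11. In litter 1 the 3 differences were 0.73, 0.28 and 0.17, and in litters 2 to 4 they were 1.30 to 1.76. Without litter 1, limma called 2 Il1rn probe sets with adjusted p of 0.0490 for differences of 1.64 and 1.60, and called none when the minimum intensity was still set over all 8 arrays. The other members of the IL-1 list did not follow: the receptor Il1r1 had a difference of -0.12, Il18 0.28, and the brightest probe sets of Myd88, Irak1 and Irak2 -0.07, 0.02 and -0.001.

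The starts of some of these genes are shown because CREB, the best known partner of CREBBP, binds the cAMP response element. Its full form TGACGTCA and its half-site TGACG were searched on both strands in the 250 bases before each RefSeq transcription start (GRCm38.p6), together with CCCNNGGG, the core bound by EBF factors. A full element contains 2 half-sites. Dkk2 (chr3:132085042-132085291, plus strand) and the first of 3 listed starts of Il1rn (chr2:24336610-24336859, plus strand) are printed as the starts of the antagonists described above, Gjb2 (chr14:57104703-57104952, minus strand) and Cd55 (chr1:130462745-130462994, minus strand) because they hold a half-site, and Ebf3 (chr7:137314446-137314695, minus strand) as a transcription factor gene described below. Capitals mark the half-site (TGACG, or CGTCA on the other strand) and the EBF core.
Dkk2: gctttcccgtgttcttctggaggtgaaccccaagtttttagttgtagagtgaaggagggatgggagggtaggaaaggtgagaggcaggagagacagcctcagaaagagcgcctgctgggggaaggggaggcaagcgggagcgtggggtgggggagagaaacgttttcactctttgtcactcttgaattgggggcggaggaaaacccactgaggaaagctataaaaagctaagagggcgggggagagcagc
Il1rn: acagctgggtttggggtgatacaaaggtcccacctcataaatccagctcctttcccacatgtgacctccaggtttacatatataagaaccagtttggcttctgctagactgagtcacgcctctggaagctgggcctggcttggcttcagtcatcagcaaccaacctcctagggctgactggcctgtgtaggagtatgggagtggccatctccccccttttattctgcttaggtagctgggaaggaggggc
Gjb2: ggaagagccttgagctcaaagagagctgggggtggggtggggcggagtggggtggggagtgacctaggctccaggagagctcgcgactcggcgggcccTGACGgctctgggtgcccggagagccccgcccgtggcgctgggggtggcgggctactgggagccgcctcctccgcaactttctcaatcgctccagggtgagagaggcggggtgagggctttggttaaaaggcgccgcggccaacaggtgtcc
Cd55: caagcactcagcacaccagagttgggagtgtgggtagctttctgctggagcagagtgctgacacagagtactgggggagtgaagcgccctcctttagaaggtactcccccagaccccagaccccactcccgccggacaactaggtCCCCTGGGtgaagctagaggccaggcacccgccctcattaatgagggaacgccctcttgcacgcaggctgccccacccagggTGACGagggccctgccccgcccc
Ebf3: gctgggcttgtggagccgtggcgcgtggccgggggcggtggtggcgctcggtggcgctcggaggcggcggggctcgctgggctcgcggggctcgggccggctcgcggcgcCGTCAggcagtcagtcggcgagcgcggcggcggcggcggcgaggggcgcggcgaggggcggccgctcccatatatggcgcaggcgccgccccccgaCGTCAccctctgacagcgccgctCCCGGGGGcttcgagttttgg
Of the 30 genes with the largest differences (15 higher and 15 lower, chosen as described in the processing), 21 had a listed start. The full element was in none of these 21 and in 1.77% of all 27025 genes with a start. Gjb2 and Cd55 alone held the half-site, 1 of 11 higher (9.09%) and 1 of 10 lower genes, against 19.8% of all genes. The EBF core was in 4 of the 11 higher genes (36.4%) and 3 of the 10 lower ones (30.0%), against 13.4% of all genes. The Ebf3 start held 2 half-sites and 1 EBF core. A match is a run of letters only, and says nothing of binding in these cells.

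Of the 15 genes with the largest higher differences, Tmem178, a membrane protein gene, had the largest. It read 6.85, 5.29, 6.64 and 6.23 in WT and 7.47, 8.06, 7.90 and 8.40 in Crebbp+/- samples, a difference of 1.70 (standard error 0.36, adjusted p = 0.553). Gjb2, which encodes the gap junction protein connexin 26, read 6.72, 8.98, 8.40 and 9.18 in WT and between 9.54 and 9.63 in the 4 Crebbp+/- samples. Its groups did not overlap, but the difference of 1.28 (standard error 0.43) was made of 2.92 in litter 1 and 0.43 to 1.20 in the others, and was 0.73 without litter 1. Nnat, an imprinted gene for a proteolipid of the endoplasmic reticulum, read 5.94, 7.09, 6.69 and 6.14 in WT and 7.34, 7.61, 7.78 and 7.76 in Crebbp+/- samples, a difference of 1.16 (standard error 0.19). Actc1, the cardiac alpha actin, had 1.32 (standard error 0.19) with WT levels of 5.32 to 5.94, all below the minimum intensity. The ligand Wnt10a had 1.33 (standard error 0.41), with groups that overlapped. Col10a1, a collagen of hypertrophic cartilage, had 1.15 (standard error 0.19) and Tnfrsf11b, the decoy receptor osteoprotegerin that restrains osteoclasts, 0.85 (standard error 0.30). Asb4, Tspyl3, Nell2, Reep1, Nacad and Tmem267 had differences of 0.83 to 0.99. A higher gene outside these 15 with non-overlapping groups was Ccn5, a matricellular protein gene named after its values were seen. It read 10.26, 10.40, 10.01 and 10.40 in WT and 11.26, 11.10, 10.70 and 10.98 in Crebbp+/- samples, with a difference of 0.74 (standard error 0.091).

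Genes for patterning transcription factors were present among the higher ones, and Zic1 and Hoxd13 among the lower ones. Pitx1, a homeobox gene that specifies the hindlimb and jaw, had 1.54 (standard error 0.31, adjusted p = 0.542) by a probe set whose WT samples read 6.67, 5.25, 4.40 and 4.21 and whose Crebbp+/- samples read 7.15, 6.74, 6.83 and 5.96. Most of those WT values lay below the minimum, where the size of a difference depends on the background. A brighter Pitx1 probe set gave 0.73 (standard error 0.17), also higher in each litter. Lhx9, a LIM homeobox gene of limb and gonad, read 7.23, 7.51, 7.43 and 6.74 in WT and 8.30, 7.91, 8.01 and 7.67 in Crebbp+/- samples, a difference of 0.74 (standard error 0.13). Foxc1, a forkhead factor of skull and eye mesenchyme, had 0.65 (standard error 0.12). Of 26 measured genes for limb, face and body patterning, 15 were higher and 11 lower with a median of 0.081. At an unadjusted p under 0.05, 6 of these were higher (with Foxd1 at 0.56, Alx1 at 0.57 and Tbx18 at 0.43) and 1, Osr2 (-0.49), lower. Zic1, outside this list and named after its values were seen, had -0.70 (standard error 0.12) and groups that did not overlap. Among 18 Hox and partner genes the median was -0.001, and Hoxd13, the most distal limb gene of its cluster, had -0.74 (standard error 0.17).

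**Figure D3:**
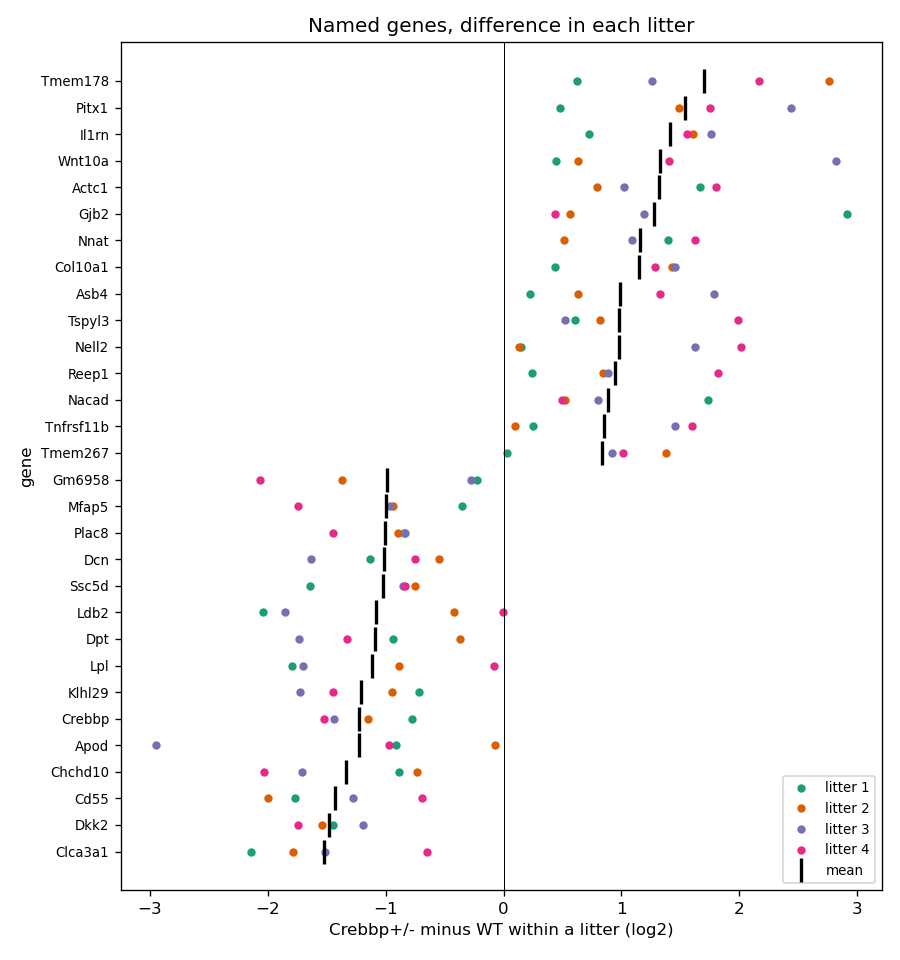
Crebbp+/- minus WT within each litter (x axis, log2; 1 coloured point per litter) and the mean over the 4 litters (black bar) for the 30 genes with the largest differences (y axis). The genes were chosen for the same direction in every litter, so the sides carry no test; Dkk2 spans -1.20 to -1.75 while Apod and Gjb2 each have 1 litter far from the rest.

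The lower genes with the largest differences included several of the extracellular matrix and cell surface. Clca3a1, a secreted regulator of chloride channels, read 9.11, 8.53, 8.84 and 8.65 in WT and 6.97, 6.75, 7.33 and 8.004 in Crebbp+/- samples, a difference of -1.52 (standard error 0.24, adjusted p = 0.505). Cd55, which dissociates complement convertases on the cell surface, read 7.70, 6.35, 6.94 and 6.86 in WT and 5.93, 4.35, 5.67 and 6.17 in Crebbp+/- samples. Its difference was -1.43 (standard error 0.22). A second, dimmer Cd55 probe set also gave -1.43, but by it only the WT sample of litter 1 reached the minimum intensity. Dcn, the small proteoglycan decorin that binds collagen and TGF-beta, read 11.46, 10.63, 11.73 and 10.74 in WT and 10.33, 10.08, 10.10 and 9.98 in Crebbp+/- samples. The 2 groups did not overlap, and the difference was -1.02 (standard error 0.19, adjusted p = 0.505). Dpt, dermatopontin of the same collagen-binding matrix, had -1.09 (standard error 0.23), and Mfap5, a microfibril protein, -0.998 (standard error 0.22), with -0.72 by its brighter probe set. Ssc5d, a scavenger receptor protein, had -1.02 (standard error 0.17). Lpl, the lipase that releases fatty acids from lipoproteins, gave -1.12 (standard error 0.30) and -1.04 (standard error 0.34) by 2 probe sets, which had -0.08 and 0.04 in litter 4. Apod, a lipid carrier of the lipocalin family, had -1.23 (standard error 0.46), of which litter 3 alone contributed a difference of -2.95. Only its WT sample of litter 3 reached the minimum intensity. Klhl29 and the mitochondrial Chchd10 had -1.21 and -1.34. Ldb2 had -1.08 (standard error 0.38), with -2.04, -0.42, -1.86 and -0.007 in litters 1 to 4. Plac8 had -1.004 (standard error 0.13), with differences of -0.84 to -1.44 in the litters but overlapping groups. Gm6958 had -0.99 (standard error 0.34), with -0.22, -1.37, -0.28 and -2.07 in litters 1 to 4.

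Beyond these genes the fibroblast matrix list as a whole lay slightly low. Of 30 measured genes for collagens, proteoglycans and fibroblast surface proteins, 28 were lower and 2 higher, against 42.1% of all tested probe sets lower. The median was -0.090, and the medians of the litters were -0.16, -0.06, -0.18 and -0.06. The brightest members differed little: Col1a1, Col1a2 and Col3a1, the main fibrillar collagens, had -0.02, -0.09 and -0.05. The 4 with an unadjusted p under 0.05 were Dcn, Col6a3, Postn and Fbln1. Col6a3, a chain of the microfibrillar collagen VI, read 13.35, 13.11, 13.28 and 13.03 in WT and 12.58, 12.81, 12.64 and 12.56 in Crebbp+/- samples, without overlap, a difference of -0.55 (standard error 0.097). The other collagen VI chains, Col6a1 and Col6a2, had -0.08 and -0.05. Elastin (Eln) was the clearest exception with 0.53. The surface marker Thy1 had -0.71 (standard error 0.49), but it ranged from 0.88 in litter 1 to -2.33 in litter 4.

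Basement membrane and matrix-degrading genes lay on the same side. Of 12 measured basement membrane genes 10 were lower, with a median of -0.15 that was -0.43 in litter 1 and -0.038 without it. At an unadjusted p under 0.05 were 3 collagen IV chains: Col4a1 (-0.31), Col4a2 (-0.37) and Col4a5 (-0.39). Of 16 measured proteases and inhibitors 11 were lower, with a median of -0.23. Adamts9, Adamts5, Adamts1 and Adamts4, which cleave aggrecan and versican, had -0.63, -0.49, -0.39 and -0.23, and Mmp14, the membrane collagenase, -0.29. Mmp13, a cartilage collagenase, had 0.65. All 4 litter medians of this list were below 0, from -0.36 to -0.04. Contractile genes lay on the other side, with 14 of 15 measured members higher and a median of 0.18, but the median without litter 1 was 0.037. Tpm2 (0.34) had the smallest p among them and Acta2, the smooth muscle actin of myofibroblasts, had 0.07.

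Of 25 measured genes for growth factors, their receptors and IGF-binding proteins, 18 were lower and 7 higher. The median was -0.18, and -0.077 without litter 1. Kitl, the ligand of the KIT receptor of stem cells, mast cells and melanocytes, read 9.59, 8.28, 8.74 and 8.63 in WT and 8.20, 7.37, 7.78 and 8.19 in Crebbp+/- samples. These did not overlap, the difference was -0.92 (standard error 0.16, adjusted p = 0.505), and the second, dimmer Kitl probe set gave -0.95. By that second probe set only the WT sample of litter 1 reached the minimum intensity. Vegfd and Vegfc, ligands of the lymphatic receptor FLT4, had -0.71 (standard error 0.14) and -0.73 (standard error 0.15). All 3 Vegfd and all 3 Vegfc probe sets measured were lower. Vegfa, the main blood vessel ligand, had -0.13. Igfbp6 and Igf2r, which bind IGF2, had -0.48 and -0.47, and Igf2 itself 0.01. Ptn, the secreted growth factor pleiotrophin, was chosen after its values were seen and read 12.82, 12.72, 13.27 and 12.40 in WT and 11.75, 12.25, 11.92 and 11.70 in Crebbp+/- samples, a difference of -0.90 (standard error 0.16). In the Wnt list, 13 of 18 measured genes were lower with a median of -0.13; besides Dkk2, the antagonist Sfrp1 had -0.52 and the target Ccnd1 -0.22. The median was -0.31 in litter 1 and 0.10 in litter 4.

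The EBF transcription factor genes Ebf1 and Ebf3 were lower by every probe set measured. Ebf1 and Ebf3 belong to a family that directs B cell, adipocyte and connective tissue genes, and they were singled out after their values were seen because 5 of their 7 probe sets reached the unadjusted p and fold. The Ebf3 probe set with the largest difference read 7.32, 7.27, 7.16 and 7.09 in WT and 6.39, 6.58, 6.52 and 6.14 in Crebbp+/- samples, a difference of -0.80 (standard error 0.085, adjusted p = 0.417). The other 2 Ebf3 probe sets gave -0.59 and -0.54. Of the Ebf1 probe sets, that with the largest difference read 9.07, 8.78, 9.25 and 8.80 in WT and 8.15, 8.43, 8.03 and 8.36 in Crebbp+/- samples, a difference of -0.73 (standard error 0.16). Its other probe sets gave -0.67, -0.67 and -0.42. Both genes were without overlap between genotypes by 3 of 3 Ebf3 and 3 of 4 Ebf1 probe sets. Over all tested probe sets, 1.37% had every Crebbp+/- sample below every WT sample. Because the 2 genes were picked for their values, the count carries no test.

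Some groups of genes had differences that were uneven between the litters. All 33 measured genes for DNA replication and mitosis were higher, with a median of 0.29, but the litter medians were 0.87, -0.06, 0.27 and -0.03. Without litter 1 the median was 0.087. Ccne2, the cyclin E2 that drives entry into S phase, was the regular member: it read 7.46, 7.52, 7.497 and 7.72 in WT and 8.33, 7.92, 8.20 and 8.08 in Crebbp+/- samples, a difference of 0.58 (standard error 0.11) without overlap. Ki-67 (Mki67) had 0.22, of which litter 1 gave 0.55. Immediate early genes, induced within minutes by serum, had a median of 0.27 over 17 measured members with litter medians of 0.99, -0.39, 0.03 and 0.08. Without litter 1 that median was 0. Fos had 1.85 in litter 1 and -0.42 in litter 2. The matricellular target Ccn1 had 0.68 (standard error 0.22). Cartilage and bone genes were the most uneven list. Col2a1, the collagen of cartilage, read 13.31, 10.86, 10.06 and 11.94 in WT and 13.25, 11.99, 11.88 and 13.70 in Crebbp+/- samples, a wide spread within each genotype. The list had a median of 0.35, from -1.14 in litter 1 to 1.60 in litter 4. It was 0.998 without litter 1 and -0.12 without litter 4. The part of cell composition in these values was not tested. In bulk samples fewer cells of a type and less RNA per cell cannot be told apart. The fat cell gene Fabp4 read 9.92 in the WT sample of litter 1 and 6.97 to 7.49 in the 7 others.

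**Figure D4:**
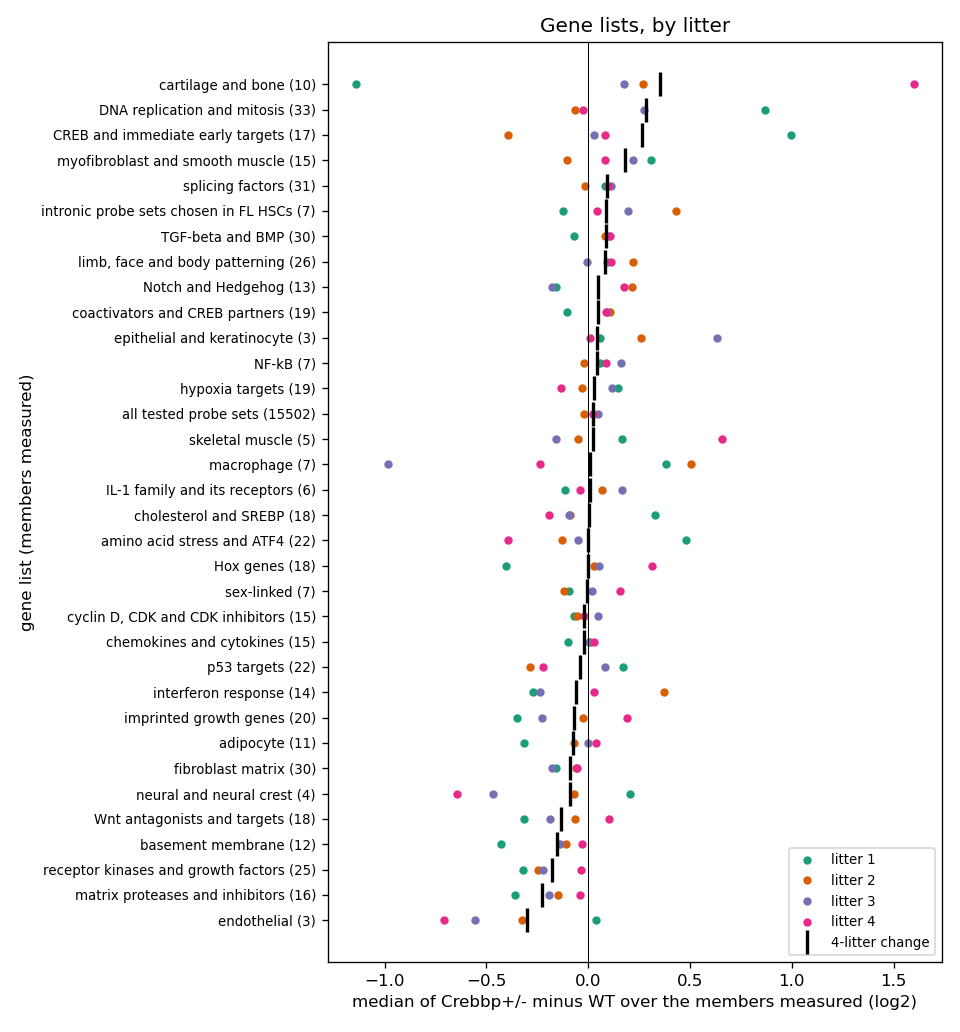
Median of the Crebbp+/- minus WT difference (x axis, log2) over the measured members of each gene list with at least 3 (y axis, number measured in brackets), in each litter (coloured points) and for the 4-litter difference (black bar). The replication and immediate early medians are highest in litter 1, while the matrix, protease and growth factor and receptor medians are below 0 in all 4 litters.

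Over the 4 litters, several other lists had medians between -0.060 and 0.092, against 0.023 over all tested probe sets. The medians were -0.042 for 22 p53 targets, 0.005 for 18 cholesterol genes, 0.00 for 22 amino acid stress genes, 0.029 for 19 hypoxia targets, -0.060 for 14 interferon genes and 0.092 for 31 splicing factors. Of the splicing factors 25 were higher and 6 lower, against 42.1% of all tested probe sets lower. At an unadjusted p under 0.05 by limma, 3 of them were higher and 1 lower. Litter 1 differed from the others in some of these lists: without it the medians were -0.21 for amino acid stress, -0.16 for p53 targets and -0.13 for cholesterol genes. The litter medians of amino acid stress were 0.48, -0.13, -0.05 and -0.39. Single members stood out: Ddit3, a stress-induced bZIP factor, had -0.48 (standard error 0.084) and Ifit2, an interferon-induced gene, -0.56 (standard error 0.083), both without overlap. Vcam1, an adhesion molecule, read 11.12, 11.16, 11.26 and 11.14 in WT and 10.76, 10.73, 10.77 and 10.36 in Crebbp+/- samples, a difference of -0.52 (standard error 0.093). Of 30 TGF-beta and BMP genes 21 were higher with a median of 0.086, among them Bmp4 (0.34), Smad7 (0.35) and Ltbp2 (0.42), while the co-receptor Tgfbr3 had -0.54. Adm, the vasodilator adrenomedullin, had -0.48. Of 15 endothelial, 18 macrophage, 17 epithelial and 18 neural genes with a probe set, 3, 7, 3 and 4 were measured. Pecam1, Cdh5, Ptprc and Cdh1 were among the members below the minimum in every sample. The measured macrophage genes had litter medians of 0.38, 0.50, -0.985 and -0.24.

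The intronic probe sets that the study picked in FL HSCs were mostly too dim to measure in MEFs. Of 83, 7 reached the minimum, with a median of 0.088; 4 were higher and 3 lower. All 3 Rbm39 intronic probe sets of the 7 were higher, with 0.33, 0.31 and 0.24, though the third had -0.125 in litter 1. In FL HSCs, where the list was chosen for being lower, the same 3 gave -0.74, -0.71 and -0.80. Of all 10 Rbm39 probe sets measured in MEFs, 2 were lower, so the direction was not particular to the intronic ones.

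The same genotype contrast could be set beside that in FL HSCs for 9846 probe sets measured in both cell types. No probe set had a difference of effects that passed the call (0%), and 566 (5.75%) reached an unadjusted p under 0.05 with a fold over 1.5. The smallest adjusted p was 0.0538, shared by the leading probe sets. Fech, the last enzyme of heme synthesis, had -0.11 in MEFs and 1.23 in FL HSCs by its leading probe set, and 0.02 against 1.08 by a second. Gpt2, an alanine aminotransferase, had -0.15 and 1.71, and the hydroxyproline enzyme gene L3hypdh -0.09 and 0.96. An intronic Rbm39 probe set had 0.33 and -0.74. For Crebbp the brightest probe set gave -0.79 in MEFs and 0.07 in FL HSCs, a difference of effects of -0.86 (adjusted p = 0.0666). The second bright one gave -0.83 and -0.42 (adjusted p for the difference 0.349). A dimmer Crebbp probe set gave -0.60 in MEFs and 0.01 in FL HSCs, where the pairs had -0.16 and 0.18. Ebf1 went opposite ways by its probe set with the largest MEF difference, with -0.73 in MEFs and 1.38 in FL HSCs. The FL HSC pairs gave 2.14 and 0.63, and the difference of effects did not pass the adjusted test. The Ebf1 probe sets with -0.67 in MEFs did not reach the minimum in FL HSCs.

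Only 34 of the 149 probe sets with an unadjusted MEF difference were measured in FL HSCs at all. Leaving out Crebbp, 25 of 31 had the same direction in FL HSCs (80.6%), against 57.5% of all 9846. Vegfc had -0.73 in MEFs and -0.83 in FL HSCs, Gm6958 -0.99 and -0.83, and Slit2, an axon guidance ligand, -0.82 and -1.67. Fzd6, a Wnt receptor, had 0.60 and 1.00. FL HSC values rest on 2 pairs from amplified RNA normalized apart, so they stand as values beside the MEF ones.

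**Figure D5:**
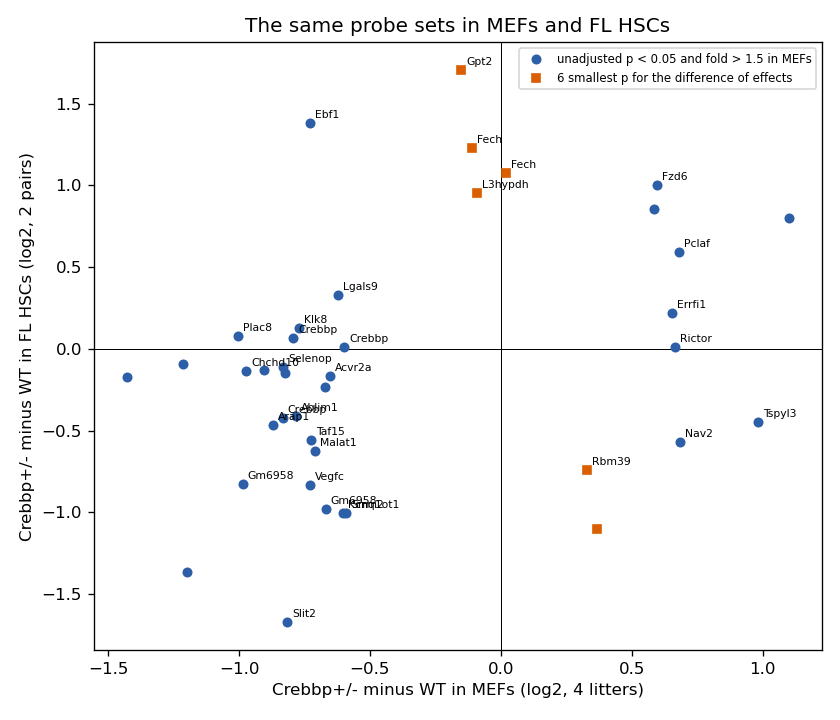
Crebbp+/- minus WT in FL HSCs (y axis, log2, mean of 2 pairs) against the same in MEFs (x axis, log2, mean of 4 litters) for the 34 probe sets with an unadjusted MEF difference that were measured in both (blue) and the 6 probe sets with the smallest p for the difference of effects (orange squares). Slit2, Gm6958 and Vegfc lie low on both axes, and Ebf1 lies low in MEFs (-0.73) and high in FL HSCs (1.38).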

How the data were processed

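MEF RNA was hybridized to Affymetrix mouse genome arrays. The methods state that it was isolated with TRIzol and used without amplification, whereas the labels describe amplification for these samples too. The authors deposited log2 values computed with GCRMA, and the MEF arrays were normalized as a group of their own. From the 45101 deposited probe sets 64 controls were left out, and 15502 whose highest MEF sample reached log2(100) were tested in R 4.3.3 with limma 3.58.1, tested first on simulated data. Litters, given by the labels, were a fixed block. The deviations of the WT and Crebbp+/- samples of a litter from their genotype means had correlations of 0.28, 0.46, 0.40 and 0.19 in litters 1 to 4. For WT and Crebbp+/- samples of different litters these correlations ran from -0.61 to 0.59, a range that includes all 4 values. The difference from FL HSCs came from a joint fit with pairs as blocks, after averaging technical replicates.

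Genes were named from the platform annotation; 14359 tested probe sets had 1 symbol, 434 several and 709 none. A list gene is represented by its brightest probe set. The named genes are the 15 higher and 15 lower ones with the largest fold at an unadjusted p under 0.05, a fold over 1.5 and the same direction in 4 litters, all Crebbp probe sets, list members of smallest p or largest fold, and the 6 smallest p for the difference from FL HSCs. Members and the 34 lists were chosen with earlier results of these data known. Alternatives changed the block, filter, centring, variance model, test and litters.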

Additional observations from a re-analysis of the deposited data

Results flagged for a closer look

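Among 92 groups of 4 samples checked, 3 held a sample far from the others by Dixon's ratio, and chance alone flags about 1 in 20 such groups. For Ssc5d the WT sample of litter 1 read 8.69 against 7.69 to 7.81 (ratio 0.879). For Klhl29 the WT sample of litter 3 read 8.70 against 7.73 to 7.86 (ratio 0.863). For Ldb2 the Crebbp+/- sample of litter 3 read 6.90 against 7.01 or just below in the others (ratio 0.928), a small gap in a tight group.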

How the results depend on the processing

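Without the replicate block, and with the replicate block as a random effect, limma called 2 probe sets, both of Crebbp (-0.79 and -0.83, adjusted p 0.0269 without the block and 0.0157 with the random block). Leaving out each litter in turn gave 0 to 2 calls, 97 to 289 probe sets at the unadjusted p and fold, and 16 to 39 list genes at it; the list genes numbered 18 with all litters. Without litter 1 there were 2 calls, 289 probe sets and 39 list genes, and without litter 3 there were 97 probe sets. Of the 149 with all litters, 108, 120, 77 and 100 remained without litters 1, 2, 3 and 4. The methods' paired t-test was run with their filters on intensity and interquartile range, but without their filter on probe sets called Absent. It gave 61 probe sets among 1187 at the unadjusted p and fold, and 0 after adjustment. The difference from FL HSCs had 1 call and 296 probe sets at the unadjusted p and fold without the replicate block, 698 and 2269 without the filter on the level over 45037 probe sets, and 28 and 19 calls with technical replicate 1 or 2 only; leaving out a MEF litter or an FL HSC pair gave 0 to 21 calls and 527 to 920 probe sets (21 calls without MEF litter 1; 18 calls and 920 probe sets without FL HSC pair 1, when the remaining pair is assumed to vary as the MEF litters do). The causes were not tested. In the MEF contrast the replicate block changed no call outside Crebbp. None of the named genes at the unadjusted p and fold changed sign under the alternatives, and the other named genes were not checked for this. List medians changed sign in 30 of 288 values under the alternatives, 5 of them without litter 1: chemokines (-0.021 to 0.086), macrophage (0.008 to -0.11), cholesterol (0.005 to -0.13), Hox (-0.001 to 0.10) and sex-linked genes (-0.004 to 0.040). The largest median to change sign was that of cartilage and bone, 0.35 and -0.12 without litter 4. The chemokine medians without litter 1 and without litter 4 (-0.15) moved by more than the spread between litters.

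With 4 litters, 3 residual degrees of freedom and 15502 tests, differences of the size seen here mostly stay short of an adjusted p of 0.05. Of the 149 probe sets at the unadjusted p and fold, 97 had both genotype means at or above log2(100). The background correction, which was not varied, can affect how large a difference appears when either mean is lower than that. By the probe set with the largest difference, this holds for Pitx1, Actc1, Wnt10a, Tmem178 and Nnat, among other higher genes. It also holds for Dkk2, Cd55, Apod, Mfap5, Plac8, Ebf3 and Rgma, among other lower ones. Passage number and culture density are not given in the sources used here.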

Other observations

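The genes of this paragraph were picked after their values were seen, and none passed the adjusted test. Rgma, a repulsive guidance molecule, read 6.19, 6.59, 6.82 and 6.22 in WT and 5.44, 5.78, 5.59 and 5.57 in Crebbp+/- samples, a difference of -0.86 (standard error 0.11). Only its WT sample of litter 3 reached the minimum intensity. Among other genes known from axon guidance, Slit2 had -0.82 and -0.34 by 2 probe sets, Ntn1 -0.78, Epha4 -0.64 and -0.22, and the 3 Sema5a probe sets -0.72, -0.66 and -0.64. Errfi1, which inhibits the EGF receptor, had 0.68 and 0.65 without overlap, and Socs3, which inhibits cytokine receptors, had 0.73, 0.61 and 0.52. Socs2, of the same family as Socs3, had -0.61 and -0.57. Smoc2, a matricellular calcium-binding protein, read 11.06, 10.10, 10.07 and 9.94 in WT and 9.18, 9.10, 9.34 and 9.78 in Crebbp+/- samples, a difference of -0.94 (standard error 0.27).

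The genes next to Crebbp on chromosome 16 differed less than Crebbp. The 6 measured genes before it and 10 after it, in RefSeq order, had differences from -0.20 to 0.19, and 0 had an unadjusted p under 0.05 by limma or passed the call. Its direct measured neighbours Trap1 and Glis2 had 0.003 and -0.20. Of the 133 probe sets at the unadjusted p and fold that could be placed, 8 lay on chromosome 16 (6.02%), 4 of them those of Crebbp, against 3.54% of all placed probe sets.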
